A study of Mus musculus with 12 samples.

Results

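The mitochondrial respiratory chain and ATP synthase were examined through their nuclear genes in livers of germ-free mice given growth hormone (GH) or phosphate-buffered saline (PBS). Genes were taken from the table of exonic read counts by their symbols (Nduf for complex I, Sdh for II, Uqcr and Cyc1 for III, Cox for IV, Atp5 for V). They had to have a mean of at least 10 counts over the 12 libraries. Of 85 symbols of this form 78 were kept, 37 of complex I, 4 of II, 9 of III, 11 of IV and 17 of V, among 38087 genes in the table. Members were thus selected on their mean count over all libraries, so their presence and level are descriptions. The rule did not use the difference between the groups, but it was set with earlier results of these data known. The lowest members inside the limit were Cox7a1 (mean 14.2 counts), Ndufa4l2 (18.6) and Atp5s (89.3), and the highest left outside were Atp5l2 (6.5), Cox6b2 (0.75) and Cox6a2 (0.5). Cox8b, Cox8c and Cox7b2 also fell below the limit, with means of 0.33, 0.17 and 0 counts, and 1 symbol with the pseudogene suffix, Atp5l-ps1, was left out. All 78 members passed the filter on low counts that left 14235 genes for testing.

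Male C57BL/6j mice of 13 to 16 weeks, kept germ-free (without any microorganisms), formed both groups, with 6 livers in each. The GH mice were injected under the skin with recombinant human GH at 50 µg per mouse, and the PBS mice with the saline alone. Both had 2 injections a day, at ZT 2 and ZT 14 (hours after lights on), over 5 days, and their livers were collected at ZT 2. Ribosomal RNA-depleted total RNA was sequenced to totals of 19523104 to 23278931 exonic counts per library. Nothing in the labels says that the 6 numbered samples of a group came from separate animals, and if they did not, a p-value reflects technical spread. Hepatocyte markers (Alb, Apoa1, Ttr, Hnf4a, Cps1, Asgr1) summed to 70500 to 94300 counts-per-million (CPM) in GH livers and 89000 to 106000 CPM in PBS livers, and skeletal muscle markers to at most 0.176 CPM in any library. Between the groups 682 of the 14235 tested genes changed (323 higher, 359 lower), and these shares are the background against which the members are read. PBS replicates 2 and 5 stood apart from the other livers in the levels of the members, and the results are also given without them. With libraries scaled by their totals alone the share of higher genes among the calls was 24.3%, against 47.4% with the TMM scaling used here.

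Complexes I to IV pass electrons from NADH and succinate to oxygen, and complexes I, III and IV pump protons across the inner mitochondrial membrane. Complex V, the ATP synthase, uses the returning protons to make ATP. Most subunits are encoded in the nucleus, and the rest by mitochondrial DNA, of which no gene stands in this table. Liver draws on the chain for costly syntheses such as glucose and urea. The factors NRF1, GABP (of the ETS family), YY1 and SP1 are known to bind promoters of many of these genes, and the coactivators of the PGC-1 family act with them. The symbol rule misses a few subunits named otherwise (Cox4i1, Ndufab1, Usmg5), which were followed in a separate list, and it includes Atp5s and Atp5sl, which are not subunits of the synthase. Ndufa4 is counted here under its name in complex I, although it is known as a subunit of complex IV.

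Promoters are shown for 3 members. Atp5h had the smallest p among all members, Ndufb3 was the member furthest above zero, and Ndufb4 was the subunit of complex I with the smallest p among those lower in GH. Each line gives the 250 bases before the gene's most upstream RefSeq start on the gene's own strand, from RefSeq on GRCm38.p6. Gene positions are those of GENCODE M21, and each window reaches some bases into the gene as placed there. Capitals mark matches on either strand to GCGCANGC (NRF1), to CCGGAAG (ETS), to AAGATGGC (YY1) or to GGGCGG (SP1). Atp5h lies at chr11:115415689-115419962 (minus strand) and its promoter at chr11:115419920-115420169, Ndufb3 at chr1:58586384-58595964 (plus strand) and its promoter at chr1:58586147-58586396, and Ndufb4 at chr16:37647170-37654453 (minus strand) and its promoter at chr16:37654369-37654618.
Atp5h: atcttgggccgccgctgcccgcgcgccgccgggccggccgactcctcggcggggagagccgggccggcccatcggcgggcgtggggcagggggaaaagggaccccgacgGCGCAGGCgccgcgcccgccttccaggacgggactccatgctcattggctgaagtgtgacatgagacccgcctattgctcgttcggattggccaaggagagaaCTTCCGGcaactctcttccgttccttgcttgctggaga
Ndufb3: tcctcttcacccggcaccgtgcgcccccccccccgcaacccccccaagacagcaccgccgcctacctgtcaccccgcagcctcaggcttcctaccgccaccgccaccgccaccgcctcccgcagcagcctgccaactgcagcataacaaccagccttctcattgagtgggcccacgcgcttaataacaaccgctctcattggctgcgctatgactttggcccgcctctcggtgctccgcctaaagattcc
Ndufb4: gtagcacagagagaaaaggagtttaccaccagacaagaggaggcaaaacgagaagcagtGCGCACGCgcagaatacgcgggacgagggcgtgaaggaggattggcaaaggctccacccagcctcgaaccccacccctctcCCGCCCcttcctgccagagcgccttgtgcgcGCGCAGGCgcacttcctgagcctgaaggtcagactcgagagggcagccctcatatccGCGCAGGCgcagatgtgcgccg
The Atp5h window holds 1 NRF1 match and 1 ETS match, and the Ndufb4 window 3 NRF1 matches and 1 SP1 match. The Ndufb3 window holds none of these letters. Some of the matches lie in the part of the window inside the gene as GENCODE M21 places it. Among the 66 members whose promoter was in the RefSeq table, 27.3% had an NRF1 match, against 16.5% of 9810 tested genes and 8.42% of 27025 promoters in the table. ETS matches stood in 16.7% of the members, 13.8% of the tested genes and 7.07% of the table. For SP1 the shares were 33.3%, 58.4% and 33.0%, and for YY1 0%, 1.93% and 1.58%. The median GC content was 56.2% in the members and 59.6% in the tested genes. A match is a description of these letters and not a measured binding site, and the 3 promoters illustrate genes with different values rather than a measured regulatory difference.

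None of the 78 members was called as changed between GH and PBS livers in edgeR's test. In edgeR's quasi-likelihood test with Benjamini-Hochberg adjustment over all 14235 genes, 0 members were higher (2.27% of all tested genes were) and 0 were lower (2.52% of all tested genes were), so 0 were called in either direction, against 4.79% of all tested genes. At an unadjusted p under 0.05 there were 5 members, or 6.41%, against 19.0% of all tested genes. That count was 11 (14.1%) without PBS replicate 2, 8 (10.3%) without PBS replicate 5, 3 (3.85%) without GH replicate 2 or without PBS replicate 6, and 12 (15.4%) with library totals, each below the share of all tested genes under the same setting (16.6 to 21.1%). DESeq2 gave 7 members (8.97%) at an unadjusted p under 0.05, against 19.4% of all tested genes. DESeq2 called 1 member, Atp5h (adjusted p = 0.0309), where 7.53% of all tested genes were called. In 0 members were the GH values and the PBS values without overlap, against 3.18% of all tested genes. The median log2 fold change of the members, GH over PBS, was -0.02, against 0.00 over all tested genes, with 30 members above zero and 48 below. Those below zero numbered 32 when PBS replicate 5 was left out, 28 when GH replicate 6 was left out with it, and 68 with library totals, so the side that held most members depended on these choices. The members ranged between -0.31 (Ndufa4l2) and 0.23 (Ndufb3). The low end rests on single libraries, since Ndufa4l2 had -0.14 without PBS replicate 5 and -0.43 without GH replicate 3. The median absolute log2 fold change was 0.05, against 0.13 over all tested genes.

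The precision of these estimates was high compared with other genes. The median standard error of a log2 fold change was 0.072 for the members and 0.119 over all tested genes. For 70 of the 78 members the 95% interval lay within 0.32 of zero on the log2 scale. The intervals of the other 8, Ndufa4l2, Ndufb3, Ndufb4, Ndufb7, Uqcr10, Cox7a1, Atp5k and Atp5sl, reached beyond that limit. A member that did not pass the test is therefore not shown to be equal between the groups, but for most members a log2 fold change beyond 0.32 lies outside the interval. These are levels in whole liver, where fewer cells of a type and less RNA per cell cannot be told apart.

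**Figure D1:**
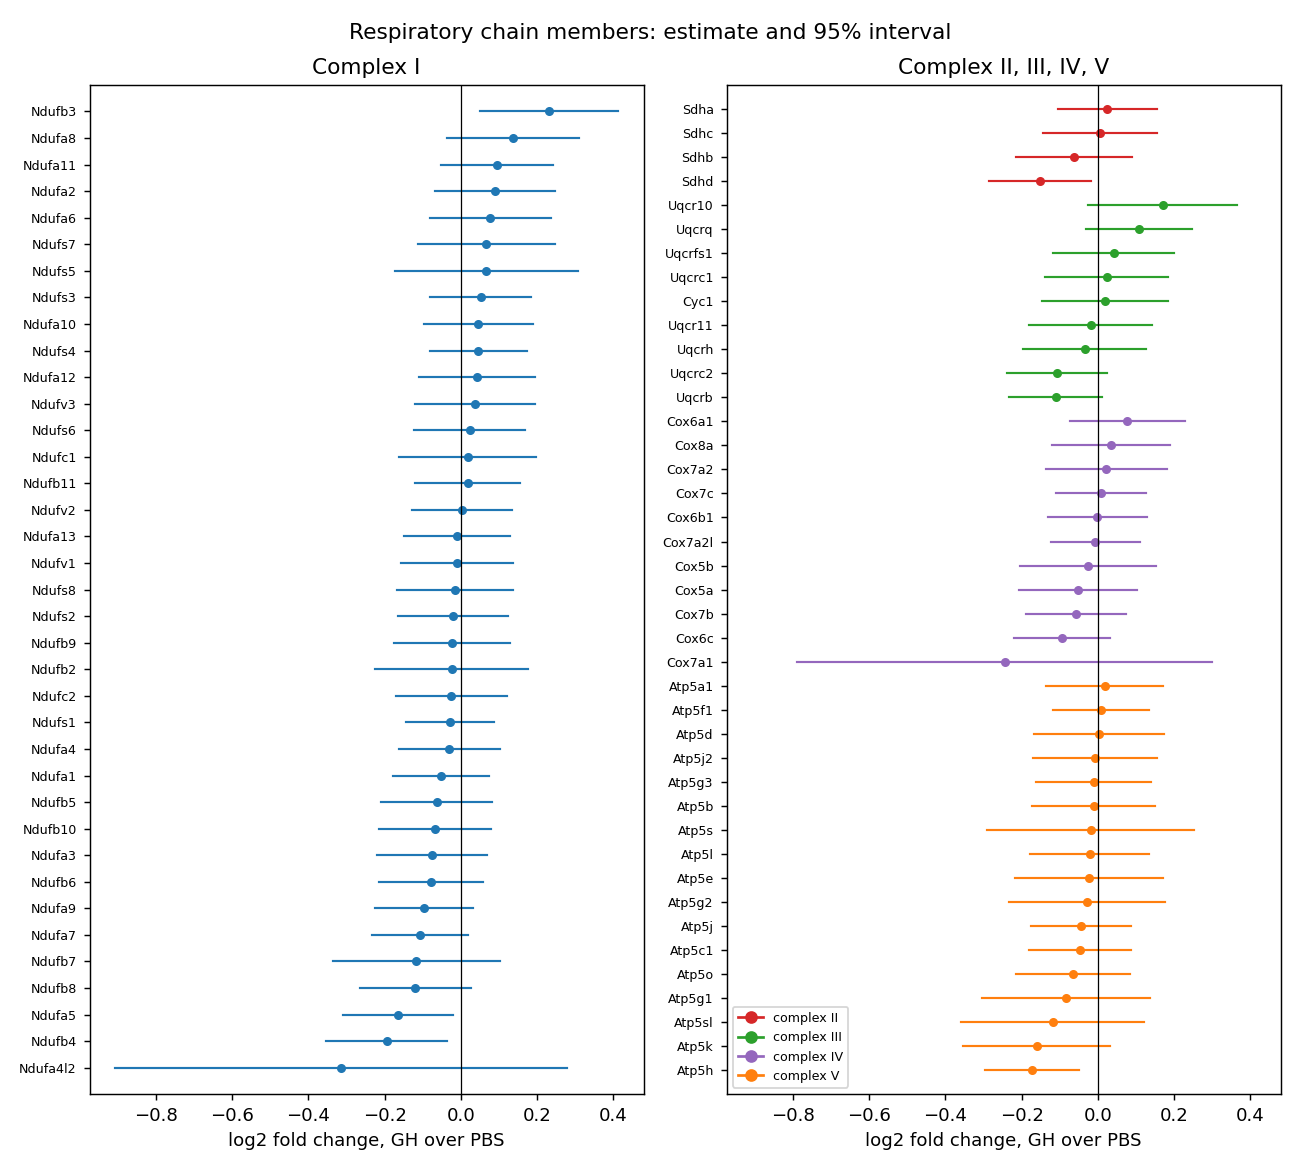
Estimated log2 fold change of GH over PBS for each of the 78 members (points) with its 95% interval (lines), sorted within complex I (left) and within complexes II to V (right). The estimates cluster around 0, from -0.31 for Ndufa4l2 to 0.23 for Ndufb3, and the widest intervals belong to the low genes Ndufa4l2 and Cox7a1.

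Complex I takes electrons from NADH. Its 7 core subunits, which carry the flavin and the iron-sulphur clusters, had log2 fold changes from -0.03 (Ndufs1) to 0.07 (Ndufs7), with a median of -0.01. Ndufs1, the largest core subunit, had 128, 133 and 134 CPM in GH livers and 123, 136 and 142 CPM in PBS livers (lowest, median and highest of 6 libraries, the order used for every member below). Ndufv1, which binds NADH and the flavin, had 119, 123 and 136 CPM in GH livers and 107, 127 and 142 CPM in PBS livers. For both genes the GH values lay inside the PBS range.

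The 30 accessory subunits of complex I ranged more widely than the core, from -0.31 to 0.23, with a median log2 fold change of -0.02. Ndufb3, of the membrane arm, had 27.6, 33.4 and 38.1 CPM in GH livers and 24.0, 28.4 and 31.3 CPM in PBS livers. Its 4 highest values were all GH livers and its lowest was PBS replicate 2, while the groups overlapped. The log2 fold change was 0.23 (95% interval 0.05 to 0.41) and did not pass (edgeR adjusted p = 0.143). Ndufb4, also of the membrane arm, had 14.6, 16.9 and 18.1 CPM in GH livers and 17.2, 19.9 and 20.5 CPM in PBS livers. Here 4 PBS livers lay above every GH liver and 3 GH livers below every PBS liver. Its log2 fold change was -0.19 (-0.35 to -0.04; edgeR adjusted p = 0.164). Ndufa5, an accessory subunit of the arm that reaches into the matrix, had 31.5, 33.0 and 34.2 CPM in GH livers and 31.3, 38.3 and 40.5 CPM in PBS livers. Its 4 highest values were PBS livers, and PBS replicate 2 was again the lowest. The log2 fold change of -0.16 did not pass (edgeR adjusted p = 0.197).

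Ndufa4 and its paralog Ndufa4l2, which is known as a gene induced by low oxygen, differed widely in level. Ndufa4 had 192, 202 and 217 CPM in GH livers and 188, 212 and 221 CPM in PBS livers, a log2 fold change of -0.03. Ndufa4l2 had 0.576, 0.704 and 1.07 CPM in GH livers and 0.580, 0.864 and 1.53 CPM in PBS livers. It rests on 11 to 22 counts per GH library and 12 to 33 counts per PBS library. Its log2 fold change was -0.31, with an interval of -0.91 to 0.28, and did not pass (edgeR adjusted p = 0.600).

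Complex II, succinate dehydrogenase, is shared with the tricarboxylic acid cycle and has only nuclear subunits. The median log2 fold change of its 4 genes was -0.03. Sdha, the flavoprotein that oxidises succinate, had 405, 417 and 423 CPM in GH livers and 376, 404 and 438 CPM in PBS livers. Sdhb, the iron-sulphur subunit, had 155, 162 and 168 CPM in GH livers and 136, 172 and 186 CPM in PBS livers. The GH values of both lay within the PBS range. Sdhd, a membrane anchor, had 129, 135 and 142 CPM in GH livers and 132, 149 and 164 CPM in PBS livers. In Sdhd 5 PBS livers lay above every GH liver, PBS replicate 2 being the exception. Its log2 fold change was -0.15 (-0.29 to -0.02) and did not pass (edgeR adjusted p = 0.197).

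Complex III hands electrons from ubiquinol to cytochrome c. Its 9 members had a median log2 fold change of 0.02, and 0 had an unadjusted p under 0.05. Cyc1, cytochrome c1, had 94.9, 105 and 112 CPM in GH livers and 86.0, 102 and 119 CPM in PBS livers. Uqcrfs1, the Rieske iron-sulphur protein, had 152, 159 and 166 CPM in GH livers and 127, 155 and 179 CPM in PBS livers. Uqcrc1, a core protein, had 176, 192 and 205 CPM in GH livers and 159, 192 and 214 CPM in PBS livers. In all 3 genes the lowest library was PBS replicate 2 and the highest PBS replicate 5. The small subunit Uqcr10 had 69.7, 82.1 and 92.7 CPM in GH livers and 58.0, 71.9 and 88.0 CPM in PBS livers. Its log2 fold change of 0.17 (-0.03 to 0.37) was the highest of the complex and did not pass (edgeR adjusted p = 0.339). Uqcrb, which helps to bind ubiquinone, was the lowest at -0.11 (edgeR adjusted p = 0.322), with 102, 108 and 114 CPM in GH livers and 108, 118 and 124 CPM in PBS livers.

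Complex IV, cytochrome c oxidase, reduces oxygen. Its 11 members had a median log2 fold change of -0.01. Cox5a, which binds on the matrix side, had 86.5, 98.2 and 104 CPM in GH livers and 85.7, 100 and 114 CPM in PBS livers. Cox5b, a zinc-binding neighbour on the same side, had 99.6, 112 and 122 CPM in GH livers and 101, 110 and 143 CPM in PBS livers. In Cox5b PBS replicate 5 stood alone at the top and the other PBS livers lay within the GH range.

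Several subunits of complex IV exist in tissue-specific forms, and the liver libraries held mainly the forms known from liver. Cox6a1, the liver form, had 148, 167 and 181 CPM in GH livers and 140, 156 and 173 CPM in PBS livers, whereas its heart and muscle form Cox6a2 totalled 6 counts over the 12 libraries. Cox7a2, the liver form, had 111, 113 and 117 CPM in GH livers and 90.4, 113 and 133 CPM in PBS livers. The heart and muscle form Cox7a1 had 0.367, 0.604 and 0.852 CPM in GH livers and 0.556, 0.653 and 1.07 CPM in PBS livers. Cox7a1 was thus low in both groups, and Cox7a2 was far higher in all livers. Cox7a2l was kept by its symbol, as a paralog and not as a tissue form. It had 62.5, 64.5 and 68.3 CPM in GH livers and 60.6, 65.4 and 68.7 CPM in PBS livers. Cox7a1 had the lowest log2 fold change of the complex, at -0.24, with an interval of -0.79 to 0.30, and Cox6a1 the highest at 0.08. The estimate for Cox7a1 was -0.10 without PBS replicate 5 and -0.14 without GH replicate 1. Cox6b1, Cox7b and Cox8a, whose sister genes Cox6b2, Cox7b2, Cox8b and Cox8c totalled 9, 0, 4 and 2 counts, had log2 fold changes of 0.00, -0.06 and 0.03.

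Complex V had 3 members above zero and 14 below, with a median log2 fold change of -0.02. Its catalytic head turns proton flow into ATP. Atp5b, the beta subunit that makes ATP, had 1060, 1090 and 1160 CPM in GH livers and 948, 1090 and 1310 CPM in PBS livers. Atp5a1, the alpha subunit beside it, had 893, 935 and 1000 CPM in GH livers and 790, 930 and 1050 CPM in PBS livers. The GH values of both genes lay inside the PBS range, which PBS replicates 2 and 5 bounded. Their log2 fold changes were -0.01 (-0.17 to 0.15) and 0.02 (-0.14 to 0.17).

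Atp5h, subunit d of the stalk that holds the head still, came closest of all members to the threshold. It had 95.5, 101 and 105 CPM in GH livers and 103, 115 and 122 CPM in PBS livers. There were 5 GH livers below every PBS liver, and 5 PBS livers above every GH liver, with GH replicate 5 and PBS replicate 2 overlapping. The log2 fold change was -0.17 (-0.30 to -0.05) and did not pass (edgeR adjusted p = 0.112). With library totals in place of TMM the adjusted p was 0.0281, a scaling under which the median of all genes stood at -0.06. Atp5k, subunit e, had 56.9, 58.3 and 61.8 CPM in GH livers and 48.1, 67.5 and 78.9 CPM in PBS livers. Its log2 fold change of -0.16 had an adjusted p of 0.365 in edgeR's test, and of 0.0467 once PBS replicate 2 was left out. Atp5k was then the 1 member called, where 4.91% of all tested genes were.

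The c ring, through which protons turn the rotor, is built from 1 mature protein that 3 genes encode. Of their summed CPM, Atp5g3 gave 63.4 ± 2.03% in GH livers and 62.4 ± 1.48% in PBS livers (SD, n = 6 each). Atp5g1 gave 31.2 ± 1.70% in GH livers and 32.2 ± 1.62% in PBS livers. Atp5g2 gave 5.42 ± 0.585% in GH livers and 5.43 ± 0.396% in PBS livers. These shares are of CPM and not per transcript length, and the difference between groups was smaller than the SD for each gene. The log2 fold changes of Atp5g1, Atp5g2 and Atp5g3 were -0.08, -0.03 and -0.01. Atp5g2 overlaps Mir688, and among the other members Ndufb8 overlaps Gm20538, each over 50 or more exonic bases of one strand, so reads may have been shared there.

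**Figure D2:**
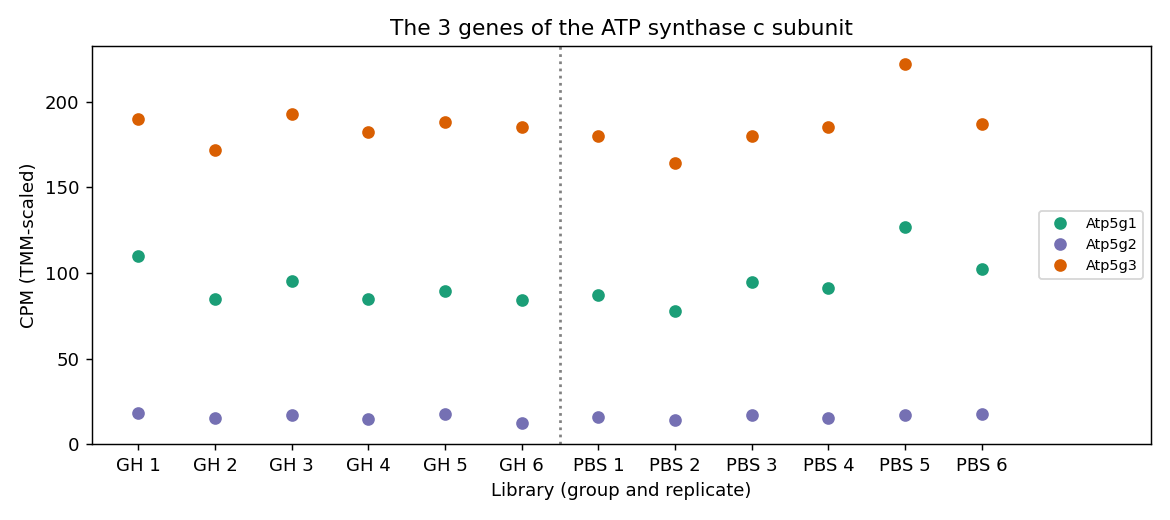
CPM (TMM-scaled) of the 3 genes of the ATP synthase c subunit in each of the 6 GH (left) and 6 PBS (right) libraries. Atp5g3 lies above Atp5g1 and Atp5g1 above Atp5g2 in every library, and the highest Atp5g1 and Atp5g3 values are those of PBS replicate 5.

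A pair of PBS livers lay at the ends of the range for most members. PBS replicate 2 was the lowest of all 12 libraries in 54 of the 78 members (69.2%), against 10.9% of all tested genes. PBS replicate 5 was the highest in 50 members (64.1%), against 14.0% of all tested genes. The summed level of the members was 9126 to 9904 CPM in GH livers and 8314 (PBS replicate 2) to 10709 CPM (PBS replicate 5) in PBS livers. As a share of all counts this was 0.893 to 0.949% in GH livers and 0.847 to 1.08% in PBS livers. The ratio of PBS replicate 5 to PBS replicate 2 had a median of 1.27 over the members and of 1.0 over all tested genes. It was above 1 in 74 members and ran from 0.891 (Atp5sl) to 2.3 (Ndufa4l2). Since these livers were picked as the ends of the members' range, a ratio above 1 in most members follows from that choice.

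In all 5 complexes PBS replicate 2 lay lowest and PBS replicate 5 highest, while the order of the other livers differed between complexes. The median deviation from each gene's mean over the 12 libraries, on the log2 scale, was between -0.26 (complex III) and -0.15 (complex IV) in PBS replicate 2, and between 0.16 and 0.20 in PBS replicate 5. Over all members it was -0.07 to 0.06 in the GH livers. The SD of log2 CPM was larger among PBS than among GH livers in 65 of 78 members (83.3%), against 60.1% of all tested genes, with median SD of 0.07 in GH livers and 0.13 in PBS livers. Without PBS replicates 2 and 5 the median SD in PBS livers was 0.07. It was then larger than in GH livers in 30 of 78 members, against 6572 of 14235 tested genes. These 2 livers were picked after seeing the data, as the ends of the members' range. Leaving them out therefore lowers the PBS spread of the members by construction. With both left out, 0 members were called, 10 had an unadjusted p under 0.05 (12.8%, against 20.4% of all tested genes), and the median log2 fold change was -0.02. Leaving out PBS replicate 2 alone gave a median of -0.06, and leaving out PBS replicate 5 alone 0.02.

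Other genes moved with these 2 livers. The 80 genes matching the names of the cytosolic ribosome had a median deviation of -0.31 in PBS replicate 2 and 0.18 in PBS replicate 5. Among the mitochondrial lists it was -0.14 and 0.15 for electron carriers and other inner membrane parts, -0.13 and 0.14 for the tricarboxylic acid cycle, and -0.11 and 0.12 for the mitochondrial ribosome. Assembly factors had -0.03 and 0.03, and biogenesis regulators 0.13 and -0.02. For all tested genes in the shortest tertile of transcript length it was -0.08 and 0.06, and in the longest tertile 0.09 and -0.07. The members are short, with a median transcript of 867 bases against 2905 over all tested genes. In PBS replicate 5 the pericentral hepatocyte markers summed to 5250 CPM, the lowest of the 12 libraries, and the periportal ones to 9090 CPM, the highest. Red blood cell markers summed to 173 to 257 CPM in GH livers and 57.6 to 179 CPM in PBS livers, the highest PBS value being that of replicate 5. The part of transcript length, of lobule zone or of blood in the members' values was not tested.

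**Figure D3:**
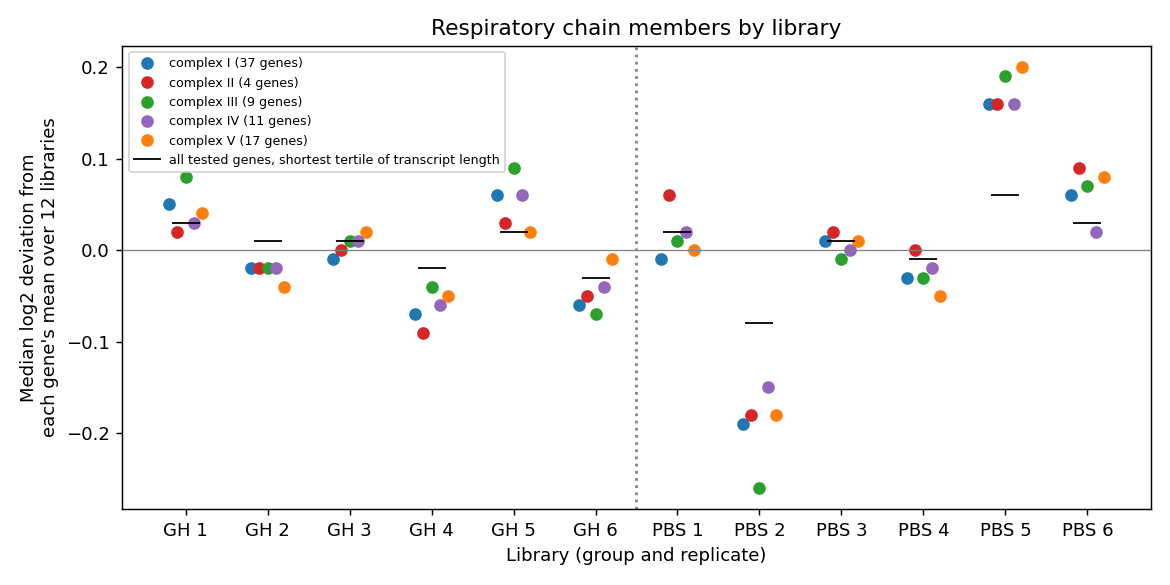
Median log2 deviation of the members of each complex from each gene's mean over the 12 libraries, for the 6 GH (left) and 6 PBS (right) livers, with a dash for all tested genes in the shortest tertile of transcript length. PBS replicate 2 lies lowest and PBS replicate 5 highest for every complex, while over all members the GH livers lie between -0.07 and 0.06.

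Per length the members were among the more abundant transcripts of the liver. Levels between genes are given as CPM per kb of the main transcript, the mean of both groups. Their median was 100 CPM per kb, against 4.88 over 12220 tested genes with such a transcript, and 63 of 78 lay in the top decile. Atp5b was the highest, with 576 CPM per kb in GH livers and 581 in PBS livers. Next came Ndufa4, with 384 in GH livers and 392 in PBS livers, and Atp5a1, with 379 in GH livers and 374 in PBS livers. This order depends on the length used. Per length of all annotated exons Atp5a1 had rank 1 (297 CPM per kb), Atp5b rank 2 (261) and Ndufa4 rank 8 (149). At the low end Ndufa4l2 had 0.828 in GH livers and 1.03 in PBS livers, Cox7a1 1.55 in GH livers and 1.85 in PBS livers, and Atp5s 2.71 in GH livers and 2.74 in PBS livers. These 3 were the only members below the median of the tested genes. The medians of complexes I to V were 62.5, 129, 148, 153 and 161 CPM per kb. Per length of all annotated exons they were 40.6, 86.6, 106, 72.1 and 62.6, so the order of complexes II to V depends on the length used. Complex I had the lowest median under both lengths. The members lie on 19 chromosomes, with 3 on X, so neighbouring position is not a shared feature of the set.

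**Figure D4:**
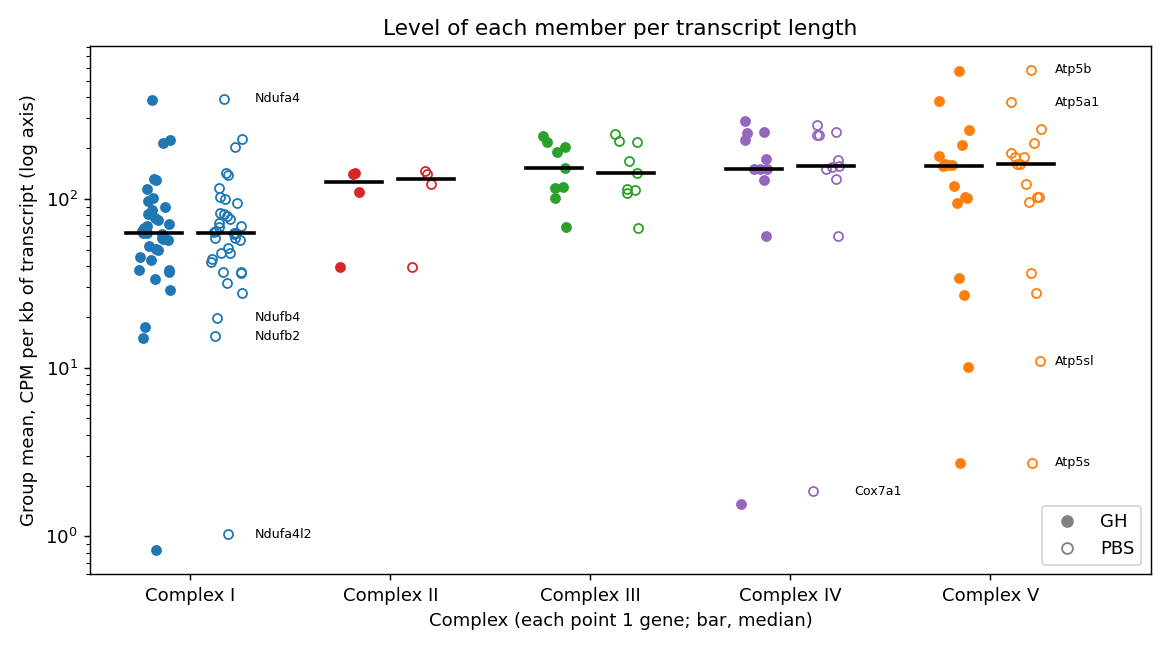
Group mean of each member in CPM per kb of transcript (log axis), with filled points for GH and open points for PBS livers and bars for the medians, by complex. Members span 0.927 to 578 CPM per kb in the mean of both groups, and the GH and PBS medians of each complex lie close together.

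The genes around the chain were followed in 6 lists. In edgeR's test 4.79% of all tested genes were called, and 19.0% had an unadjusted p under 0.05. In a short list 0 calls lies near that share and is not a result about the list. Of 49 assembly factors, which insert cofactors and put subunits together, 0 were higher and 0 lower. Their median log2 fold change was -0.02, and 10.2% had an unadjusted p under 0.05. Of 26 electron carriers and other parts of the inner membrane 0 were called, 1 (3.85%) had an unadjusted p under 0.05, and the median was -0.02. Within it Cox4i1, the largest nuclear subunit of complex IV, averaged 267 ± 10.6 CPM in GH livers and 276 ± 28.6 CPM in PBS livers (SD, n = 6 each), a log2 fold change of -0.05 (edgeR adjusted p = 0.794). Cycs, cytochrome c, averaged 42.1 ± 2.00 CPM in GH livers and 46.2 ± 7.08 CPM in PBS livers, a log2 fold change of -0.13 (edgeR adjusted p = 0.463).

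Of 18 genes of the tricarboxylic acid cycle and its entry enzymes 0 passed, with a median log2 fold change of -0.09 and 14 below zero. The smallest edgeR adjusted p was 0.052, with 4 genes (22.2%) at an unadjusted p under 0.05, against 19.0% of all tested genes. DESeq2 called 1 of the 18, where it called 7.53% of all tested genes. Of the 18 genes 3 were called with PBS replicates 2 and 5 left out, where 5.33% of all tested genes were, and 2 without PBS replicate 5 alone, where 5.96% were. Of 18 regulators of mitochondrial biogenesis 0 passed in edgeR's test and 1 in DESeq2, with a median of -0.11, and all 6 with an unadjusted p under 0.05 were lower in GH, or 33.3% against 19.0% of all tested genes in either direction. With PBS replicate 5 left out 2 of them were called. Nrf1 averaged 10.7 ± 0.801 CPM in GH livers and 12.3 ± 1.37 CPM in PBS livers (SD, n = 6 each; log2 fold change -0.21, edgeR adjusted p = 0.217). Gabpa, which encodes the DNA-binding subunit of GABP, averaged 57.7 ± 3.71 CPM in GH livers and 65.3 ± 5.12 CPM in PBS livers (-0.18, edgeR adjusted p = 0.143). Ppargc1a, the coactivator PGC-1alpha, averaged 26.3 ± 5.89 CPM in GH livers and 25.2 ± 9.18 CPM in PBS livers (0.06, edgeR adjusted p = 0.924). None of these 3 genes passed, and the values of both groups overlapped in each. The log2 fold changes of Esrra, a nuclear receptor that acts with it, and of Tfam, which packs mitochondrial DNA, were 0.13 and -0.10 (edgeR adjusted p = 0.653 and 0.429).

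Mitochondrial ribosomal genes, whose products translate the mitochondrially encoded subunits, held 3 called genes of 76, all lower in GH, where 4.79% of all tested genes were called and 2.52% called lower. The median log2 fold change was 0.00, and 16 genes (21.1%) had an unadjusted p under 0.05, 6 of them higher and 10 lower, against 19.0% of all tested genes. Mrps27 had 15.5 ± 2.17 CPM in GH livers and 22.3 ± 3.73 CPM in PBS livers (SD, n = 6 each; log2 fold change -0.53, edgeR adjusted p = 0.0139). Mrps22 had 17.4 ± 1.40 CPM in GH livers and 22.2 ± 2.60 CPM in PBS livers (-0.35, edgeR adjusted p = 0.0244). Mrpl15 had 36.2 ± 3.24 CPM in GH livers and 44.5 ± 5.06 CPM in PBS livers (-0.30, edgeR adjusted p = 0.0467). All 3 encode ribosomal proteins of the mitochondrion and not subunits of the chain. Of this list 1 gene was called when GH replicate 1, PBS replicate 4 or PBS replicate 6 was left out. Under these settings 3.1 to 3.71% of all tested genes were called. Of 80 genes matching the names of the cytosolic ribosome 1 was called, Rplp0, a protein of the ribosomal stalk, with 364 ± 34.4 CPM in GH livers and 290 ± 36.8 CPM in PBS livers (0.33, edgeR adjusted p = 0.0445), against 2.27% of all tested genes called higher. The median of this list was 0.11, with 74 genes above zero. It was the list lowest in PBS replicate 2, and 13 of its genes were called without PBS replicate 5 (5.96% of all tested genes were), while 0 were called when any of the other 11 libraries except GH replicate 6 was left out.

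**Figure D5:**
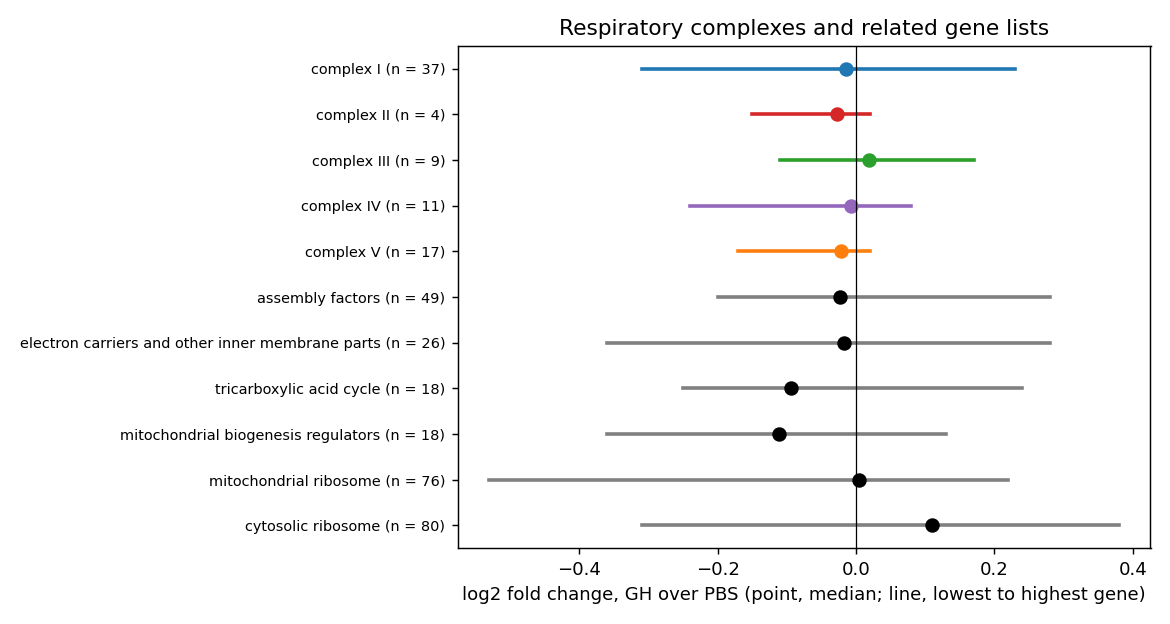
Median (point) and lowest to highest gene (line) of the log2 fold change of GH over PBS for complexes I to V and for the 6 related lists, with the number of genes tested. The complex medians lie between -0.03 and 0.02, the biogenesis regulators at -0.11 and the genes matching cytosolic ribosome names at 0.11.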

How the data were processed

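Per the labels' protocols, ribosomal RNA was depleted from 250 ng of RNA per liver, and stranded libraries were amplified for 12 cycles. The submitters' processing notes name STAR 2.4.0i and mm10 (GRCm38). The authors deposited unnormalized counts, 1 column per library, of reads on the exons of each gene. How multiply matching reads and strand were treated in counting, and with which program and annotation, was not given in the sources used here. Reads of near-identical copies, such as processed pseudogenes of short subunits, may therefore have been split or lost. Counts of PCR-amplified reads carry no molecular identifiers.

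The analysis used edgeR 4.0.16 in R 4.3.3. filterByExpr (minimum count 10) left 14235 genes, libraries were scaled by TMM, and a robust quasi-likelihood fit with group as the only term was tested by a two-sided F test with Benjamini-Hochberg adjustment over all genes, with calls at an adjusted p under 0.05. CPM are TMM-scaled counts-per-million, computed from the deposited counts. Standard errors are the absolute log2 fold change over the square root of the F statistic, and intervals use the fit's degrees of freedom. Calls were recomputed with 20 alternatives (scaling, filter, DESeq2 1.42.0, the replicate number as a block, libraries left out). The procedure was tested on simulated data.

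Coordinates, lengths and principal transcripts came from GENCODE M21, in which all 78 members were found by identifier, and the promoters from RefSeq, which held 66 of them. Members and lists were chosen with earlier results of these data known. Named members were, per complex, those with the highest and the lowest log2 fold change. Also named were 11 subunits listed by symbol, members with isoforms, and those at the ends of the level and count ranges. Ndufb4, Ndufa5 and Atp5k were named after their values were seen.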

Additional observations from a re-analysis of the deposited data

Results flagged for a closer look

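Cox5b, a subunit of complex IV, had 143 CPM in PBS replicate 5. The other 5 PBS livers lay between 101 and 114 CPM, and the gap to the nearest of them was 0.699 of the whole range of the group, above Dixon's 95% critical value for 6 samples. It was the 1 value so marked among 72 group ranges examined, and chance marks about 1 group in 20.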

How the results depend on the processing

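The count of members higher in GH was 0 under all 20 alternatives, and the count lower was 0 except for 1 with library totals (Atp5h), 1 with DESeq2 (Atp5h) and 0 to 1 with 1 library left out (Atp5k, without PBS replicate 2). The log2 fold change of Atp5h was -0.23 with library totals and -0.17 with DESeq2. The members' median log2 fold change ran from -0.08 (library totals) to 0.03 (GH replicate 6 and PBS replicate 5 left out), and from -0.06 to 0.02 with 1 library left out. Its sign changed when PBS replicate 5 was left out, and the cause was not tested. Of all genes, 682 were called in the reported fit, 1072 with DESeq2 and 434 to 854 with 1 library left out. Higher calls numbered 211 with library totals, 506 with DESeq2, 518 without GH replicate 6 and PBS replicate 5, and 193 to 410 with 1 library left out. Lower calls numbered 658 with library totals and 566 with DESeq2. Whether the replicate numbers pair the samples is not in the labels. In their deviations from group means, same-numbered livers correlated at -0.17 to 0.16, and only number 4 correlated best with its own. Such correlations cannot show how the samples were paired in the design. With the number as a replicate block 391 genes were called (180 higher, 211 lower), 0 members and 0 cytosolic ribosome genes. With library totals 6.1% of all tested genes were called. The calls were then 1 of 49 assembly factors, 2 of 18 in the tricarboxylic acid cycle and 2 of 18 biogenesis regulators. They were 7 of 76 in the mitochondrial ribosome and 0 of 80 in the cytosolic one. With DESeq2 (7.53% of all tested genes called) they were 1 in the cycle, 1 among regulators, 5 mitochondrial and 2 cytosolic. Without GH replicate 6 and PBS replicate 5 (7.18% of all tested genes) they were 2, 2 and, for the cytosolic ribosome, 15. Without PBS replicates 2 and 5 (5.33% of all tested genes), a setting chosen after seeing the data, they were 3, 1 and 7. With 1 library left out 3.02 to 5.96% of all tested genes were called. The list calls then ran from 0 to 2 in the cycle, 0 to 2 among regulators, 1 to 4 in the mitochondrial ribosome and 0 to 13 in the cytosolic one. Ndufa4l2, Cox7a1 and Atp5s rest on the fewest counts among the members.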
